A study of Gorilla gorilla gorilla with 14 samples.

Results

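The promoters of cytosolic ribosomal protein genes were followed across 4 sorted cell types of gorilla cerebral organoids by bulk ATAC-seq, an assay whose tagging enzyme reaches only accessible chromatin. A region was taken when the count table gave it a gorilla position, listed it within 1000 bp of its closest gene, and named that gene RPL or RPS with digits and at most one letter A or X, or RPLP0, RPLP1, RPLP2 or RPSA. This rule found 42 regions of 42 genes, 1 region each, among 204249 regions and 20663 promoter regions (those listed within 1000 bp of any gene). Of the 42, 24 belong to the large subunit and 18 to the small subunit. All 42 were listed at a distance of 0 bp, and all 42 passed the filter on low counts.

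Ribosomal proteins are the protein part of the ribosome, which reads messenger RNA in its small subunit and joins amino acids in its large subunit. Each is made from a single active gene scattered over the genome, and cells need nearly all of them in equal numbers. Their promoters lie in nucleosome-poor DNA in almost every dividing and resting cell, and their messages start with a run of pyrimidines through which growth signals set translation.

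The organoids came from GC1, a gorilla line of induced pluripotent stem cells, and were taken in week 8 of culture. They were sorted into apical radial glia (aRG, n = 3), the stem cells along the ventricle, basal radial glia (bRG, n = 2), stem cells that have left that surface, basal intermediate progenitors (bIP, n = 5), which are committed to neurons, and neurons sorted as BCL11B+ (N, n = 4). All come from 1 line of 1 species, with no treatment, and the labels do not say whether libraries came from separate cultures, so the p-values measure a spread that may be technical. The library numbers form 2 runs of 7 libraries, called library series 1 and 2 here. Series 1 took in the lower-numbered libraries of 3 cell types, up to replicate 2 for aRG and for N and up to replicate 3 for bIP. All later replicates and the whole bRG group made up series 2.

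Totals ranged from 12834983 to 26660427 counts per library. Levels are CPM, counts normalised to each library's depth with TMM factors, and 3 counts correspond to 0.113 to 0.234 CPM. The smallest count of any of the 42 regions in any library was 199 and the largest 1489, so every value lay far above that floor. Promoters of radial glia markers summed to 276 to 285 CPM in aRG and 225 to 244 in both bRG libraries, against 72.1 to 92.0 in N. Neuron marker promoters ran the other way, with 176 to 270 CPM in N and 180 to 298 in bIP, which overlapped, against 68.3 to 88.1 in aRG and 77.3 to 77.8 in bRG, and intermediate progenitor markers were highest in bIP (91.2 to 160 CPM against 29.4 to 66.5 elsewhere). By edgeR at an adjusted p under 0.05, 5 of the 6 neuron markers were higher in N than in aRG, where 66.4% of all regions passed. BCL11B, on which N was sorted, was the 1 that did not pass. The 4 basal radial glia markers did not set bRG (82.7 to 93.8 CPM) above aRG (92.5 to 93.8). In bulk cells, a region open in fewer cells and a region open less in each cell cannot be told apart.

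Not every ribosomal protein gene is covered. The table names 54 such genes as a closest gene at any distance. Of these, 8 have promoter rows without a gorilla position, RPL13A, RPL18, RPL22, RPL28, RPS15, RPS15A and RPS2 among them, and RPL3, RPL31, RPL37A and RPS26 have regions only beyond the limit, so these 12 were not analysed here. RPLP0, a stalk protein, and the X-linked RPL10, RPL36A, RPL39 and RPS4X did not come up under the rule. The rule's limit was not close to any member: the nearest regions just outside it were listed at 1960 bp from RPL6, 1982 bp from RPL38, 2372 bp from RPS9 and 2919 bp from RPL13, all genes that also have a region at 0 bp.

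The 42 regions lie on 18 gorilla chromosomes. For 7 of them the gorilla build gorGor6 and the human build hg38, both given in the table, use different chromosome numbers. RPL19, RPL23A, RPL27 and RPL38 lie on chromosome 5 in gorGor6 and 17 in hg38, and RPL37 lies on 17 in gorGor6 and 5 in hg38. RPL35A is on 7 in gorGor6 and 3 in hg38, and RPS7 is on 2A in gorGor6 and 2 in hg38. The regions were 779 to 2237 bp wide with a median of 1414 bp, against a median of 1376 bp over the 20510 promoter regions tested.

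Every promoter was open in every cell type. The mean over the 4 group means ranged from 13.8 CPM for RPL6 to 52.1 CPM for RPS19, with a median of 27.3 CPM against 13.4 over all promoter regions tested. Per kb of region, which allows genes to be compared, levels started at 10.8 CPM per kb for RPS3 and reached 33.8 for RPL23A and 33.3 for RPS19, both among the 5 highest, with a median of 19.0 against 9.06 over promoters. Of all promoter regions tested, 80.1% had a level per kb at or below the members' median. The median level per kb was 17.1 in the large subunit genes and 20.2 in the small subunit genes, a gap smaller than the spread within either class.

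**Figure D1:**
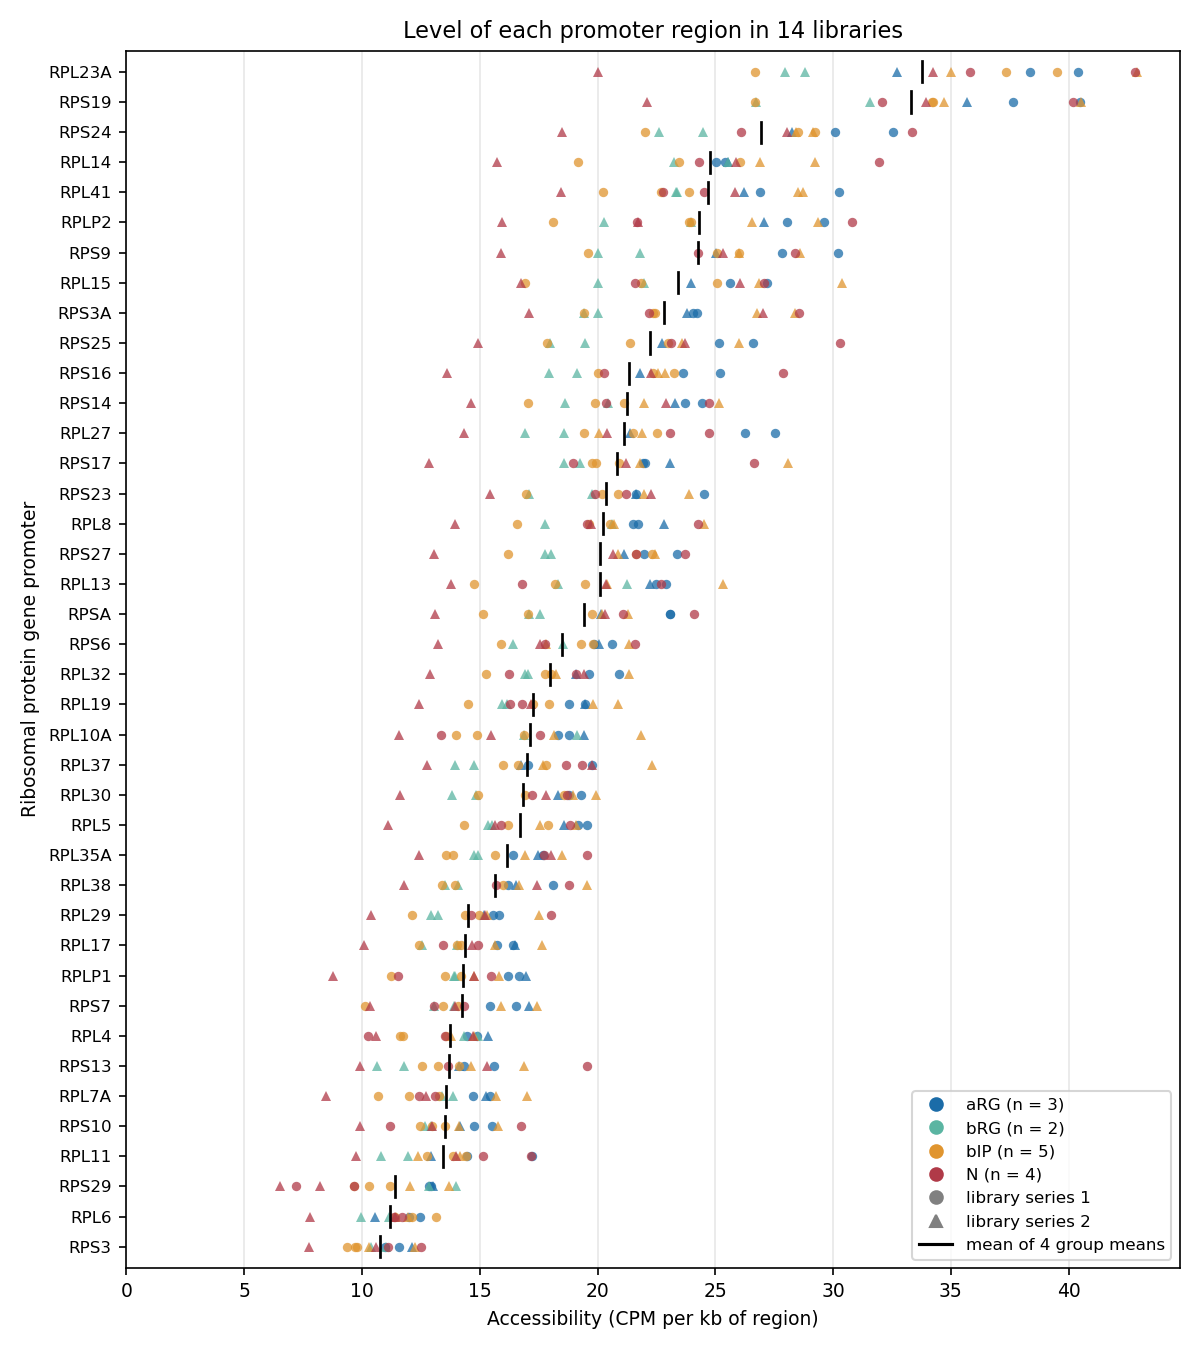
Accessibility of 40 of the 42 promoter regions in CPM per kb of region (x axis), 1 row per gene (y axis), sorted by the mean of the 4 group means (black bar). Each point is 1 of the 14 libraries, coloured by cell type, with circles for library series 1 and triangles for series 2. Mean levels run from 10.8 CPM per kb for RPS3 to 33.8 for RPL23A, and N replicate 3 is the leftmost point in 38 of 40 rows.

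Among large subunit genes, RPL23A, whose protein sits at the mouth of the peptide exit tunnel, and RPL14 (chr3:40512186-40512985) were among the highest per kb, at 33.8 and 24.8 CPM per kb. RPL23A gave 45.3, 47.7 and 38.6 CPM in aRG, 34.0 and 33.0 in both bRG libraries, 44.1, 46.6, 31.5, 41.3 and 50.6 across bIP and 42.3, 50.5, 23.6 and 40.4 in N. Both bRG libraries lay below all aRG libraries, while N and bIP overlapped with aRG. RPL14 gave 20.04, 20.3 and 20.4 CPM in aRG, 20.4 and 18.6 in both bRG libraries, 20.8, 18.8, 15.3, 21.5 and 23.4 across bIP and 19.5, 25.5, 12.6 and 20.7 in N. All groups of RPL14 overlapped, and its 4 group means differed by 0.10 on the log2 scale, the smallest range of the 42. RPL6 had the lowest level per kb of its class at 11.2, followed by RPL11 at 13.4.

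Among small subunit genes, RPS19, whose protein helps the head of the subunit mature and whose gene is the one most often mutated in Diamond-Blackfan anaemia, and RPS24, also needed for subunit maturation, stood highest per kb. RPS19 (chr19:34349276-34350838) gave 58.9, 63.3 and 55.7 CPM in aRG, 49.3 and 41.8 in both bRG libraries, 53.5, 53.5, 41.7, 54.3 and 63.4 across bIP and 50.2, 62.8, 34.5 and 53.0 in N. It had the highest CPM of the 42 regions, and its N and bIP libraries again overlapped with aRG while bRG did not. RPS3, which lines the entry of the messenger RNA channel, RPS29 and RPS10 were lowest, at 10.8, 11.4 and 13.5 CPM per kb.

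The acidic stalk proteins RPLP1 and RPLP2 recruit translation factors to the large subunit. Their regions averaged 32.6 ± 0.747 and 42.5 ± 1.92 CPM in aRG (SD, n = 3) and 24.8 ± 6.10 and 33.9 ± 9.24 in N (n = 4). RPL5 and RPL11, whose proteins bind MDM2 when ribosome assembly fails and so let p53 accumulate, averaged 31.4 ± 0.831 and 18.7 ± 2.71 CPM in aRG and 25.3 ± 5.26 and 17.6 ± 3.92 in N. RPSA, an early-joining small subunit protein also known as the laminin receptor precursor, averaged 33.3 ± 2.55 CPM in aRG and 29.6 ± 7.01 in N. In all 5 regions 1 or more N libraries overlapped with other groups, and 0 of 5 passed edgeR's test in any pair of cell types, where 0% (bRG and aRG) to 66.4% (N and aRG) of all regions passed. RPLP1, between N and aRG, was the 1 of them at an unadjusted p under 0.05 and the 1 that DESeq2 called.

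The authors' consensus peak sets, 1 per cell type and called with MACS2, could be compared with 41 regions (RPS7 lies on chromosome 2A, where the sets hold no peak). All 41 regions were touched by a peak in all 4 sets, against 59.9% of 19129 promoter regions. So were 45 of 46 promoters of mitochondrial ribosomal protein genes, so this was not particular to the members. Regions and peaks are not independent, since 59353 of 186885 regions compared had the exact start of a peak. The share over promoter regions includes low levels, while the lowest member stood at percentile 50.6 by mean CPM among promoters tested. With at least 50% of the region covered the count was 40 of 41, because the peak at RPL19 covered 45.0% of its region in aRG and 43.0% in bRG. Ranks by the authors' −log10 q were taken among all peaks of each set, not among promoters alone. The members' median percentile was 96.9 in the aRG set, 97.0 in the bRG set, 95.9 in the bIP set and 96.0 in the N set. By mean CPM among promoter regions tested, their median percentile was 73.3. RPS29 had the lowest rank in aRG, bIP and N, at the percentiles 82.7, 85.6 and 71.8, and RPL19 had the lowest in the bRG set, at 88.3. The sets were called per cell type and not per library, so these ranks have no replicate error.

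Differences between cell types were small for 41 of the 42 genes. The highest group mean was under 1.5 times the lowest for those 41, with a median ratio of 1.24, and 1.70 times for RPS29. On the log2 scale the range of group means had a median of 0.32 over members, 0.68 over promoter regions tested, and 0.45 over the 9274 promoter regions with mean CPM within the members' range. Of all promoter regions, 14.7% had a range at or below the members' median. RPS29 had the largest range (0.78), followed by RPL27 (0.49), and RPL14, RPS3 and RPL6 the smallest (0.10, 0.18 and 0.20).

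**Figure D2:**
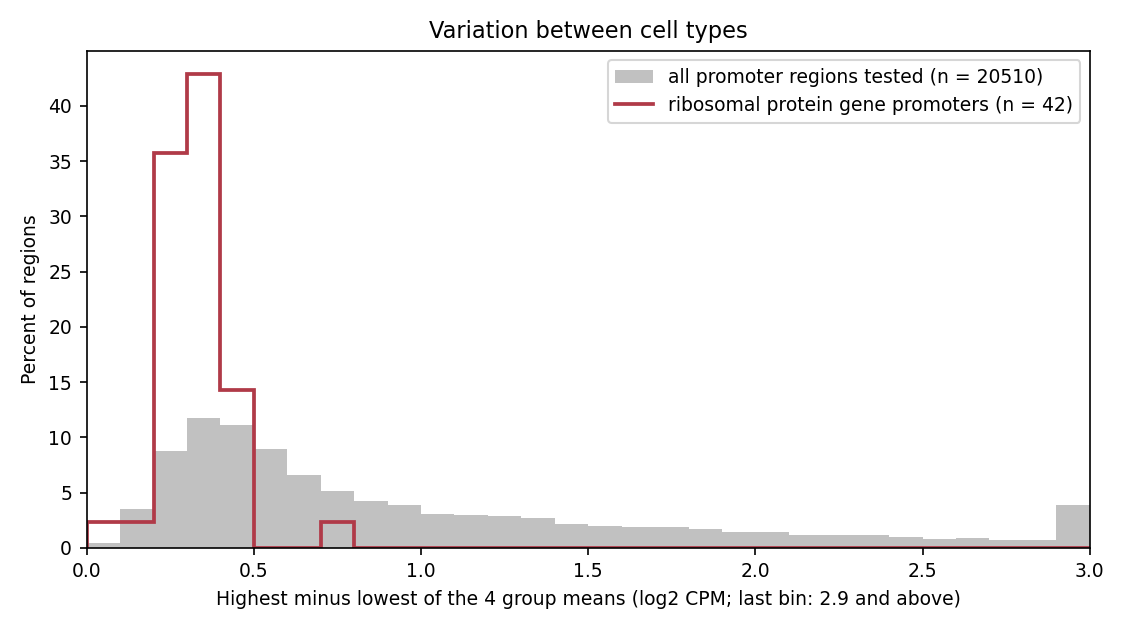
Highest minus lowest of the 4 group means of log2 CPM (x axis, bins of 0.1, the last bin open) as percent of regions (y axis), for the 20510 promoter regions tested (grey) and the 42 ribosomal protein gene promoters (red line). The members have a median of 0.32 and end below 0.5 except for RPS29 at 0.78, while the promoter regions have a median of 0.68 and a long tail.

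The comparisons among progenitors ask whether these promoters change as cells leave the ventricle or commit to neurons. Between bRG and aRG, 0 of 42 members passed edgeR's quasi-likelihood test at an adjusted p under 0.05, where 0% of all regions passed. In this pair 0 members were at an unadjusted p under 0.05, and DESeq2 called 0 of them and 0.00348% of all regions. Between bIP and aRG it was 0 of 42, against 44.9% of all regions, 29.9% of promoter regions and 17.6% of promoters with CPM in the members' range. Between bIP and bRG it was 0 of 42, against 36.5%, 21% and 8.24% in the same order. In both of these pairs, too, 0 members were at an unadjusted p under 0.05, and DESeq2 called 0 members, against 44.2% and 35.5% of all regions. Between library series 2 and 1, 0 of 42 passed, against 15.8% of all regions, 11.9% of promoter regions and 5.43% of those in the members' range. There 0 members were at an unadjusted p under 0.05, and DESeq2 called 0 against 15.4% of all regions.

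Both bRG libraries lay below all 3 aRG libraries in 36 of 42 members. That count stands against 40.3% of promoter regions tested and 61.1% of those in the members' range of CPM, so most promoters of this level did the same. RPS29 and RPL14 were among the 6 exceptions. The median log2 difference of the members, bRG minus aRG, was −0.28 against −0.19 over promoter regions and −0.01 over all regions, and it was negative under all 27 alternative settings (−0.39 to −0.02). The median standard error of a member in this pair was 0.24. All 42 intervals of 95% lay within a 2-fold change in either direction, and 23 did with the replicate number as a block. In the main fit 75.5% of promoter regions and 98.4% of those in the members' range did the same.

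Between N and aRG, 2 of 42 members passed, both lower in N, where 66.4% of all regions, 52.3% of promoter regions and 42% of promoters in the members' CPM range passed. Lower in N were 29.2% of all regions. DESeq2 called 8 members, against 65.2% of all regions. RPS29 was among those that passed, and 5 members were at an unadjusted p under 0.05. The members' median log2 difference was −0.20, against −0.26 over promoter regions and 0.18 over all regions. Its sign varied with the scaling and the filter, and it was negative under 24 of 28 alternative settings (−0.40 to 0.26). Among the exceptions, the median was 0.07 with TMM factors from promoters alone, 0.26 with loess offsets by abundance and 0.06 with a minimum of 10 CPM. Under these exceptions 5, 29 and 6 members passed, of which 4, 28 and 5 were higher in N. The interval lay within a 2-fold change for 41 of 42 members against 51.4% of promoter regions and 75.6% of those in the members' range, whose median standard errors were 0.20 and 0.19 against 0.18 for the members. Within series 2 alone, that count was 25 of 42. Promoters of 5 mesenchyme markers also summed lower in N (26.6 to 33.8 CPM) than in aRG (58.4 to 65.6), and the choroid plexus marker OTX2 stood at 1.29 to 2.26 against 6.32 to 9.02 CPM. The part of such cells in the result was not tested.

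Between N and bIP, 1 of 42 passed, against 55.2% of all regions (26.4% lower in N), 37.2% of promoters and 22.9% of those in the members' range. Between N and bRG, 1 of 42 passed, against 58.1% of all regions (25.8% lower in N), 38.3% of promoters and 21.8% of those in range. RPS29 was the member called in both, lower in N, and DESeq2 also called 1 in each, against 54.1% and 56.4% of all regions. Intervals lay within a 2-fold change for 42 of 42 members in N against bIP and for 41 of 42 in N against bRG. The shares were 66.2% and 51.1% of promoter regions, and 90.6% and 79.7% of those in the members' range. The median log2 difference was −0.09 for N minus bIP and 0.07 for N minus bRG, and both changed sign between settings (−0.37 to 0.25, and −0.20 to 0.29). With loess offsets 36 members passed between N and bIP, 35 of them higher in N, and 28 between N and bRG, 27 of them higher. Whether the effect of cell type differed between the library series was tested without bRG: 0 of 42 members passed (smallest adjusted p 0.25, edgeR), with 0 at an unadjusted p under 0.05, against 5.28% of all regions and 2.48% of promoter regions.

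**Figure D3:**
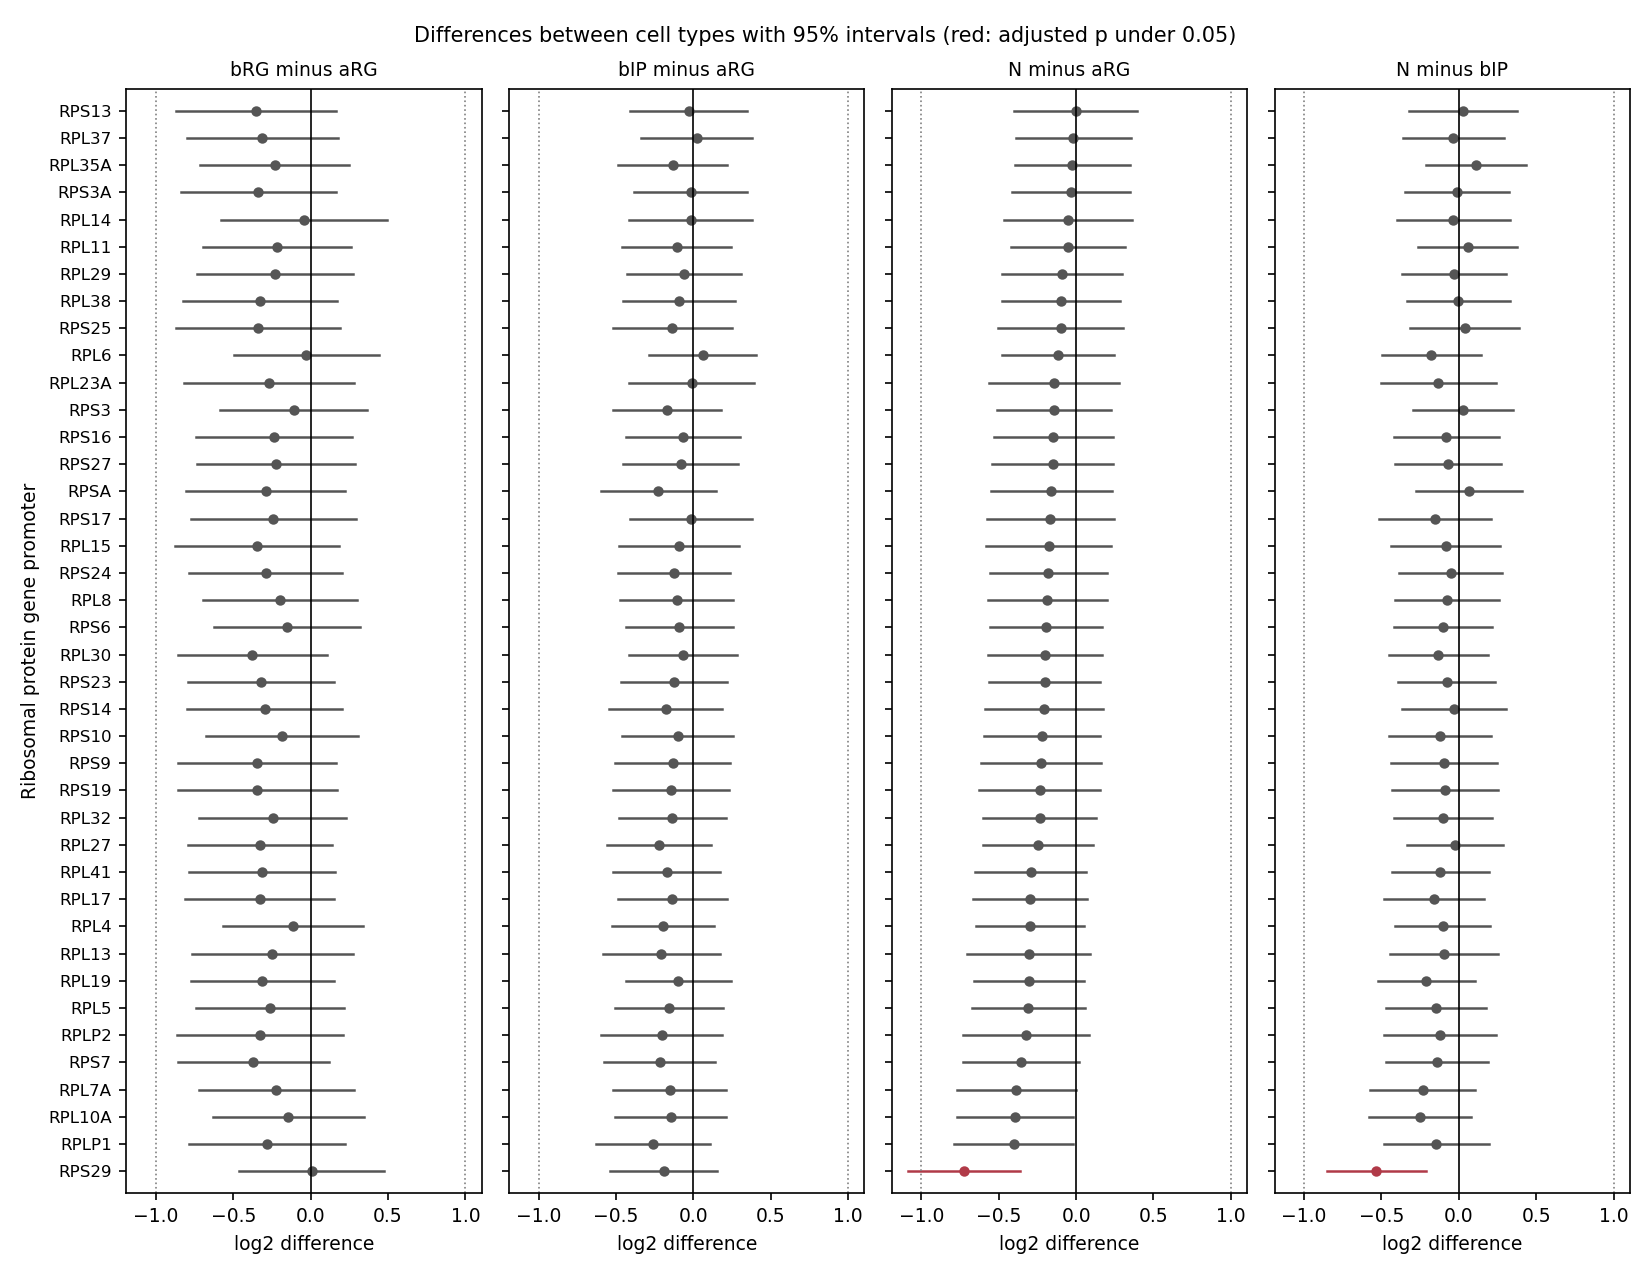
Log2 difference (x axis) of 40 of the 42 promoter regions (y axis, sorted by N minus aRG) with its 95% interval from edgeR, in 4 comparisons of cell types. Red marks an adjusted p under 0.05 over all regions, and dotted lines mark a 2-fold change. RPS29 is red in N minus aRG and N minus bIP, and no other interval drawn is red.

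The members moved together from library to library, also within a cell type. Their summed level was 1263, 1320 and 1225 CPM in aRG, 1086 and 1012 in both bRG libraries, 1163, 1118, 950.4, 1212 and 1356 across bIP and 1106, 1309, 785 and 1166 in N. Without TMM factors the sums spanned 1173 to 1204 CPM in aRG and 1064 to 1091 in bRG. They spanned 1067 to 1185 in bIP and 966 to 1336 in N, so the spread within each group was narrower. N replicate 3 had the lowest sum either way. With TMM factors it was the lowest library for 40 of 42 members. There bIP replicate 5 was the highest for 17 members and N replicate 2 for 13. The share of counts in all promoter regions was lowest in N replicate 3, at 30.4%, and highest in N replicate 2, at 39.1%. It did not follow the sums throughout: N replicate 4 had 32.7% and 1166 CPM, and bRG replicate 1 had 36.7% and 1086 CPM. The part of this share in the differences between groups was not tested. As a share of promoter counts, members held 0.303% to 0.317% in aRG, 0.295% to 0.297% in both bRG libraries, 0.313% to 0.325% in bIP and 0.317% to 0.3504% in N. On that measure both bRG libraries were lowest and N replicate 1 highest, and N replicate 3 did not stand apart.

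**Figure D4:**
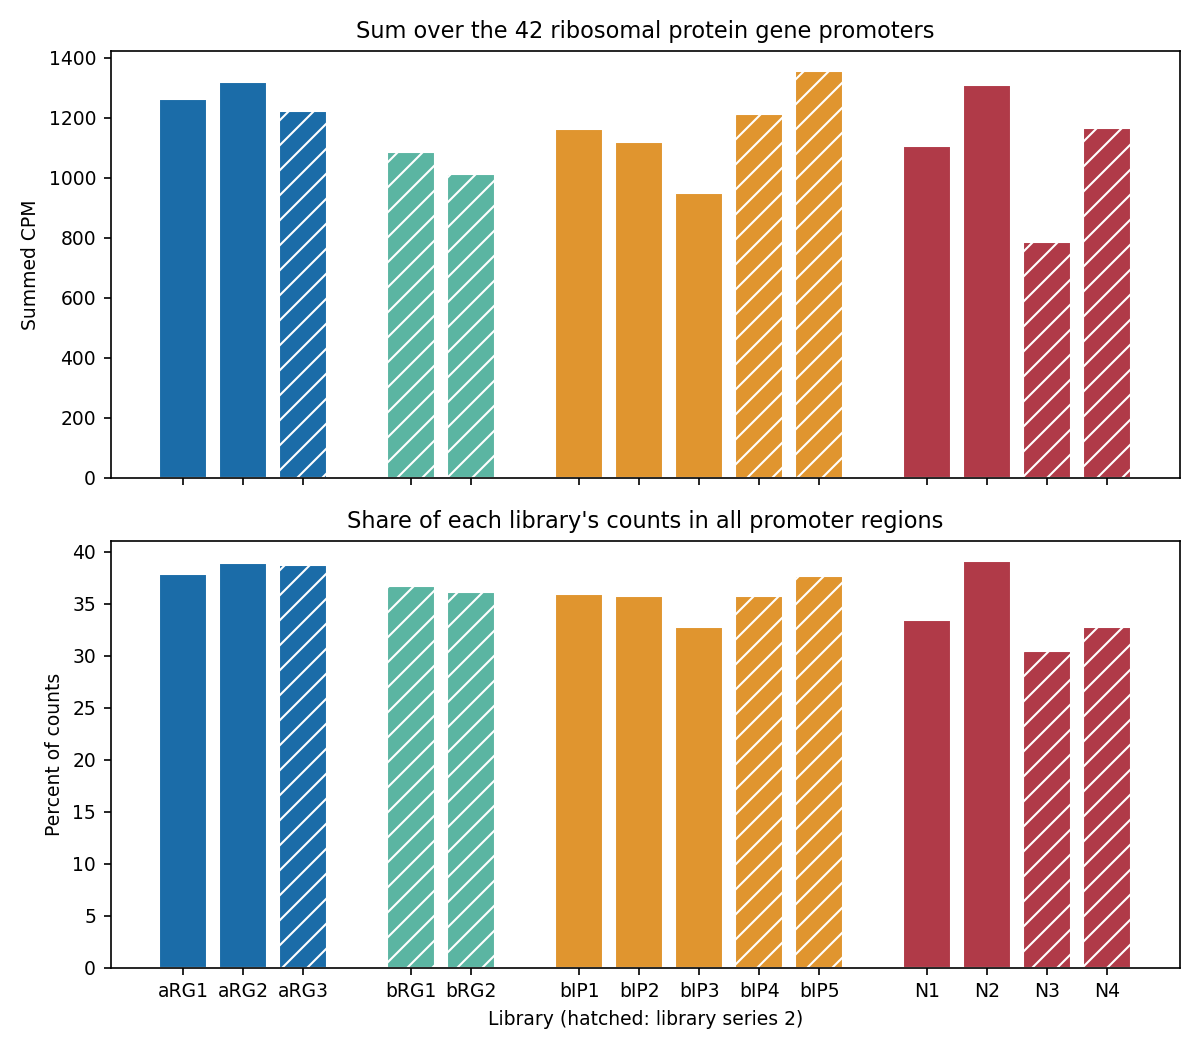
Upper bars give the summed level of the 42 regions in CPM, lower bars the share of each library's counts that fell in promoter regions, for 14 libraries grouped by cell type (hatched: library series 2). N replicate 3 is lowest in both, at 785 CPM and 30.4%, and the N libraries span 785 to 1309 CPM.

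Each library's member median was then subtracted to take out this shared movement. The SD of log2 CPM over 14 libraries had a median of 0.23 over members before and 0.10 after. The members' median was taken from these same regions, so part of this fall is built in. Subtracting the promoters' own median moved the SD from 0.38 to 0.35 over promoter regions of all levels. Promoters in the members' CPM range had a median SD of 0.28 before, and the subtraction was not run on them. Whether shared movement is particular to the members was not tested. RPS14, a protein of the small subunit's platform, tracked the members' median most closely, with an SD of 0.03, and RPS29 least, with 0.28. RPL4, whose protein lines the exit tunnel, came next at 0.20, and it was the 1 member lowest in N replicate 2 (19.4 CPM), the library where 13 members were highest. RPS29 and RPL4 were singled out here after their values were seen.

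The region listed under RPS29 was the exception in neurons, and which start of the gene it holds is not known. RPS29 is a small zinc-binding protein of the subunit's head and an anaemia gene. Its region (chr14:30363957-30366193 in gorGor6, 2237 bp, the widest of the 42) gave 28.8, 28.9 and 29.1 CPM in aRG, 31.3 and 28.8 in both bRG libraries, 25.0, 23.0, 21.6, 27.0 and 30.6 across bIP and 16.1, 21.6, 14.6 and 18.4 in N. All N libraries lay below all aRG and bRG libraries, and N replicate 2 and bIP replicate 3 met at 21.6 CPM. The log2 difference by edgeR was −0.73 ± 0.18 (SE) against aRG (adjusted p = 0.000771), −0.73 ± 0.21 against bRG (adjusted p = 0.00395) and −0.53 ± 0.16 against bIP (adjusted p = 0.00527). Among progenitors it was 0.01 ± 0.23 for bRG minus aRG, −0.19 ± 0.17 for bIP minus aRG and −0.20 ± 0.20 for bIP minus bRG, and none of these passed.

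The lower level in N kept its direction in each library series. Against aRG it was −0.60 ± 0.18 in series 1 (edgeR adjusted p = 0.00458) and −0.83 ± 0.31 in series 2 (adjusted p = 0.0307). Against bIP it was −0.30 ± 0.17 in series 1, where it did not pass (adjusted p = 0.139), and −0.81 ± 0.26 in series 2 (adjusted p = 0.0127). With the replicate number as a block, N against bRG did not pass either (−0.74 ± 0.32, adjusted p = 0.105).

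Relative to the median of the 42 members in the same library, which no scaling of libraries can move, RPS29 stood at −0.06, −0.11 and 0.00 on the log2 scale in aRG, 0.26 and 0.22 in both bRG libraries, and between −0.17 and −0.04 in the 5 bIP libraries. In N it stood at −0.69, −0.50, −0.36 and −0.61. Every N library was below every other library, N replicate 3 included, and both bRG libraries were above all others. The group means of this relative level spanned 0.78 for RPS29, against at most 0.34 for any other member (RPS13). In the peak sets the RPS29 region was covered by 2 intervals in aRG and by 1 in each of bRG, bIP and N.

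**Figure D5:**
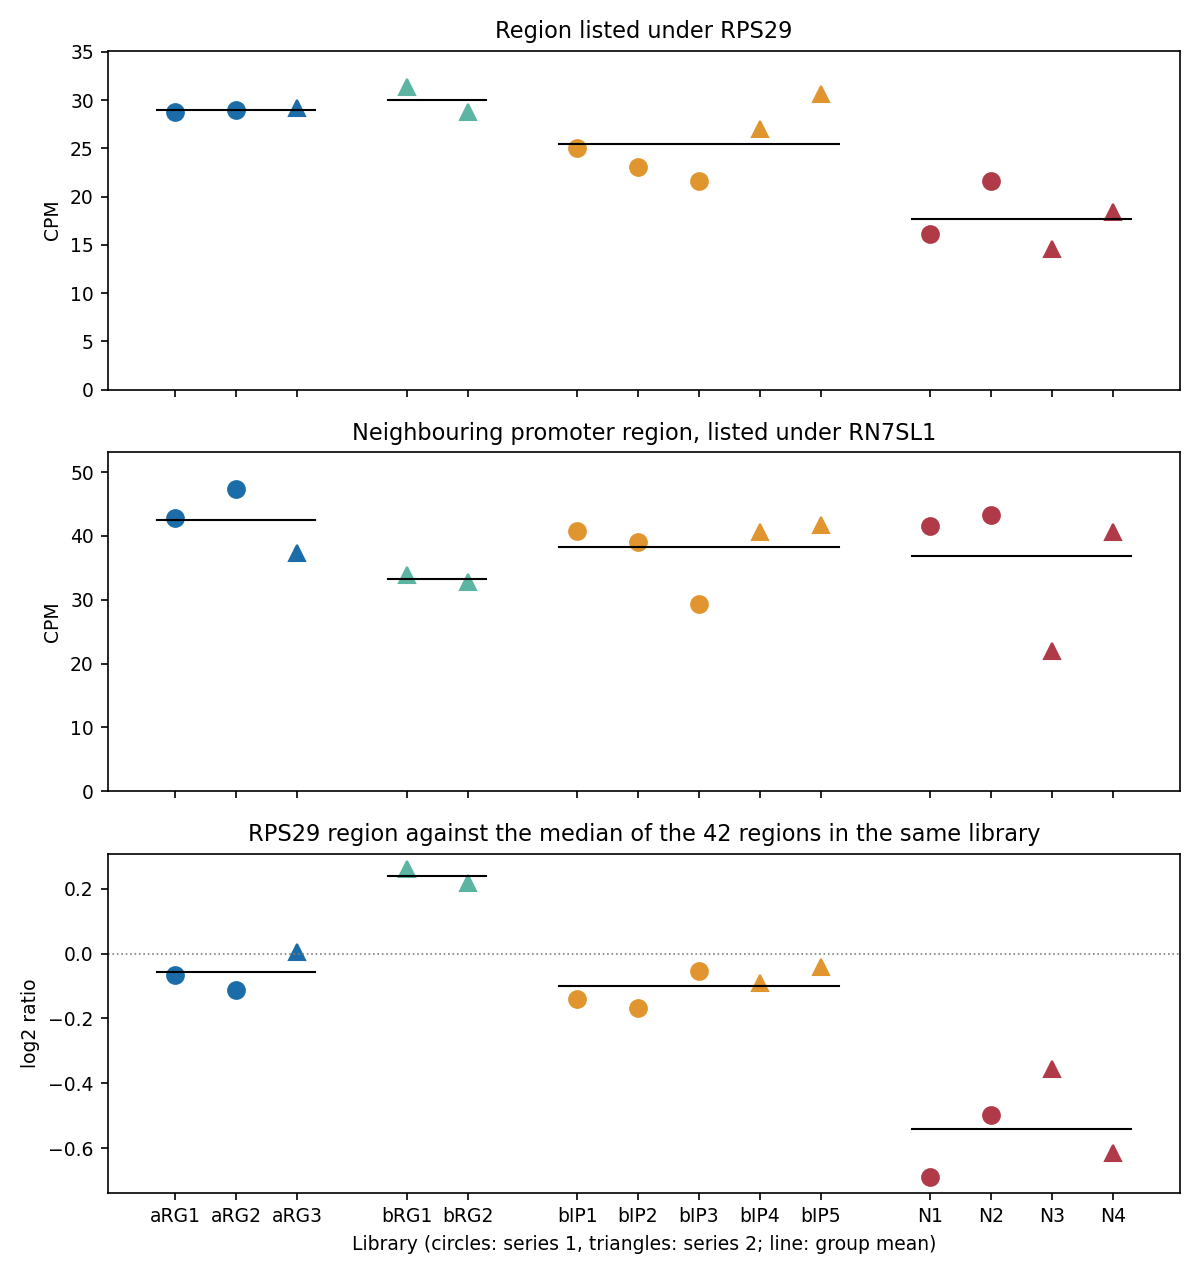
RPS29 by library, grouped by cell type, with circles for library series 1, triangles for series 2 and a line at each group mean. The upper panel gives the level of its region in CPM, the middle panel that of the promoter region 10893 bp away listed under RN7SL1, and the lower panel the log2 ratio of the RPS29 region to the median of the 42 members. N lies at −0.69 to −0.36 in the lower panel and overlaps with the other groups in the middle one.

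Which start of RPS29 this region holds is not settled by the files. Another promoter region, listed under the signal recognition particle RNA gene RN7SL1, lies 10893 bp away (chr14:30351697-30353063), and it was looked at after the values of RPS29 were seen. It gave 42.9, 47.4 and 37.4 CPM in aRG, 33.8 and 32.7 in both bRG libraries, 40.8, 39.1, 29.3, 40.6 and 41.8 across bIP and 41.5, 43.2, 22.0 and 40.6 in N. Here 3 of 4 N libraries were within the range of aRG, and the difference N minus aRG was −0.19 ± 0.20 (edgeR adjusted p = 0.413). With loess offsets its sign turned and it passed, at 0.28 (adjusted p = 0.00357). The distance in the table is taken to be that to a gene's start, which the file does not state.

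Counting all members, N lay below aRG without overlap in 9 of 42 members, against 34.2% of promoter regions and 39.7% of those in the members' CPM range.

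Of the 42 genes, 12 are known Diamond-Blackfan anaemia genes, in which loss of 1 copy impairs red cell formation. RPS29 was the 1 of these 12 that passed between N and aRG, N and bRG, and N and bIP, where 66.4%, 58.1% and 55.2% of all regions passed. DESeq2 called 2, 1 and 1 of the 12. Their median log2 difference N minus aRG was −0.20, equal to that of all 42. A further list holds 14 members that carry small nucleolar RNAs, guides for ribosomal RNA modification, in their introns. Of these, 0 of 14 passed edgeR's test in any pair of cell types, against up to 66.4% of all regions and 42% of promoters in the members' CPM range (N and aRG). RPL7A, between N and aRG, was the 1 at an unadjusted p under 0.05, and DESeq2 called 2 of 14 in that pair. Their median for N minus aRG was −0.22. Both lists hold RPL5.

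Several of these promoters are shared with other genes. Of the 42, 39 matched a gene in a RefSeq gene table built on a different assembly, NHGRI_mGorGor1-v2.1_pri, from which only names and neighbours were used. In it, 14 had another protein-coding gene within 1000 bp, such as MED22 and SURF1 beside RPL7A, PTPN11 beside RPL6, and TRAPPC4 and CENATAC beside RPS25. RPS29 had none. Counts in a region shared by neighbouring genes cannot be told apart by gene.

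Other genes of protein synthesis were taken from lists of translation factors, ribosome assembly factors, RNA polymerase I and its factors, mTOR signalling, and paralogues. Together they held 52 measured genes. By edgeR, 0 of 52 passed between bRG and aRG, between bIP and aRG and between bIP and bRG, against 0%, 29.9% and 21% of promoter regions. At an unadjusted p under 0.05 there were 0, 3 and 0, and DESeq2 called 0, 2 and 0. Between N and aRG, 1 of 14 measured translation factor genes was higher and 3 were lower, and 2 of 20 assembly genes, 2 of 7 polymerase I genes, 1 of 7 mTOR genes and 1 of 4 paralogues were lower. Over all promoter regions 52.3% passed in this pair. The lower ones were EEF1B2 (−0.43 ± 0.18) and EEF1D (−0.52 ± 0.20), elongation factor subunits, the histone chaperone NAP1L1 (−0.45 ± 0.18), the assembly factors NOP58 (−0.45 ± 0.18) and WDR12 (−0.51 ± 0.18), UBTF (−0.61 ± 0.18) and TAF1B (−0.53 ± 0.19), which start ribosomal RNA transcription, and EIF4EBP2 (−0.60 ± 0.19), a brake on translation under mTOR. EIF3E was the gene called higher (1.43 ± 0.52, edgeR adjusted p = 0.0177), at 0.909 ± 0.368 CPM in N against 0.2996 ± 0.207 in aRG, close to the floor of 3 counts. With loess offsets none of these 9 passed, and EEF1B2, NAP1L1 and NOP58 turned to 0.03, 0.06 and 0.02. EEF1B2, EEF1D, NAP1L1, NOP58, WDR12 and EIF3E passed in neither library series alone. Leaving out N replicate 1 or aRG replicate 3 ended the calls of EEF1B2, EEF1D, NAP1L1 and NOP58, aRG replicate 3 also that of TAF1B, and aRG replicate 1 those of EEF1B2, NAP1L1 and NOP58. EEF1B2 was also lost without either bRG library or bIP replicate 1 or 2, and EIF3E without aRG replicate 2 or N replicate 3 or 4.

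RPS27L is a p53-induced paralogue of RPS27. Its region went from 46.3 ± 2.30 CPM in aRG and 43.5 ± 3.41 in bRG to 35.7 ± 4.31 in bIP and 24.5 ± 3.22 in N, a log2 difference of −0.93 ± 0.17 for N minus aRG and −0.55 ± 0.15 for N minus bIP (edgeR adjusted p = 2.9e-05 and 0.0031). The second of these did not pass in series 1 alone. RPS27 itself gave 19.9 ± 1.01 CPM in aRG and 17.8 ± 4.17 in N and did not pass. The difference between RPS27L and RPS27 was not tested.

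The promoters of mitochondrial ribosomal proteins, which build the separate ribosome of the organelle, give a comparison set of the same kind. Their 54 regions had a median level of 15.2 CPM per kb against 19.0 for the cytosolic ones, and the range of their group means had a median of 0.37 on the log2 scale against 0.32. Between N and aRG, 8 of 52 genes passed, all lower, against 52.3% of promoters, and MRPL34 moved most, from 17.4 ± 1.92 to 8.22 ± 1.59 CPM (−1.07 ± 0.18, edgeR adjusted p = 1.16e-05). Between N and bIP 4 of 52 were lower, against 37.2% of promoters passing in either direction, MRPL34 among them (−0.67 ± 0.16, not passing with loess offsets). The difference between the mitochondrial and cytosolic counts was not tested.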

How the data were processed

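Open chromatin was measured by bulk ATAC-seq in 14 libraries of 4 sorted cell types. The authors deposited whole-number counts per region for all libraries, with gorGor6 and hg38 positions and the closest gene. Their values are whole numbers whose sums differ between libraries, as raw counts do. The authors also deposited peak sets, called with MACS2 per the submitters' processing notes, with a score, a fold enrichment ratio and a −log10 q per peak. The aligner is not given in the sources used here.

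Rows without a gorilla position, 13823 in all, hold 0 counts and were left out. Regions were filtered with filterByExpr, scaled by TMM and fitted with edgeR 4.0.16 (R 4.3.3): cell type plus library series, all 14 libraries, 200931 regions, Benjamini-Hochberg adjustment over all of them, threshold 0.05. DESeq2 1.42.0 was an alternative. Group values are mean ± SD over libraries, and differences are log2 ± SE. The procedure was also run on simulated counts that held no library series effect, which does not bear on the dependence on scaling described below. Each library was counted as a replicate. Over all regions, the lowest chi-square per degree of freedom between libraries of 1 group was 1.07, for aRG replicates 1 and 2. It was 1.11 for bIP replicates 1 and 2, against 6.04 and 5.30 for aRG replicate 3 with aRG replicates 1 and 2. Values this close to sampling noise do not show that both pairs are separate biological replicates. Over the 42 members alone the closest pairs showed no excess over sampling noise (0.711 for aRG replicates 1 and 2, 0.948 for the bRG pair, 0.996 for bIP replicates 1 and 2).

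Members and gene lists were chosen with earlier results of these data known. Genes were named by fixed rules: members passing a test, the 5 highest and 5 lowest per kb, the 3 largest and 3 smallest ranges, the small classes, and list genes passing a test. Some genes these rules would name are not reported here. No genome of the build was used, so no sequence is shown.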

Additional observations from a re-analysis of the deposited data

Results flagged for a closer look

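Members named by the fixed rules were checked in bIP and N for a single library far from the rest of its group. The summed and median member levels and the share of counts in promoters were checked too. This made 38 sets of 4 or 5 libraries with Dixon's 95% criterion, and 2 sets met it. Members named for other reasons, such as RPL4, were not checked. Chance alone would mark about 1 set in 20, but the sets are not independent, since members move together within a library. RPS24 stood at 22.3 CPM in bIP replicate 3, while the other 4 bIP libraries lay between 28.8 and 29.6 CPM. RPL6 stood at 9.56 CPM in N replicate 3, and the other 3 N libraries lay between 13.9 and 14.4 CPM. These are the libraries with the lowest share of counts in promoter regions in their groups, 32.8% and 30.4%, and the part of that share in both values was not tested.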

How the results depend on the processing

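How many members passed, and in which direction, varied with the scaling, the filter, the model and the libraries used. Between N and aRG (2 members passing in the report), DESeq2 gave 8, DESeq2 size factors 6, promoter TMM 5, loess offsets 29, a minimum of 10 CPM 6, no filter 15, no series term 1, the 2 groups alone 8, summed library pairs 5, either series alone 1, and scaling to the members, chosen after seeing the data, 7. With the replicate number as a block 10 passed between N and aRG and 0 between N and bRG. Between N and bRG (1), promoter TMM gave 10, loess 28, 10 CPM 12, member scaling 5, and leaving out bIP replicate 3 and N replicate 3 together, also chosen after seeing the data, 7. Between N and bIP (1), promoter TMM gave 2, the first series 2, loess 36, 10 CPM 27 and member scaling 2. Between bIP and aRG (0), the first series gave 2, loess 1 and 10 CPM 12. Between bIP and bRG (0), promoter TMM gave 4, loess 2, 10 CPM 2, the 2 groups alone 6, member scaling 1 and leaving out both libraries 5. Between series (0), promoter TMM gave 2, loess 7, 10 CPM 11 and member scaling 1. Between bRG and aRG it was 0 in every setting run.

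Leaving out 1 library at a time gave 1 to 13 between N and aRG (13 without N replicate 4 or bIP replicate 4, 10 without N replicate 2 or 3, 8 without aRG replicate 2, 4 without bIP replicate 3, 1 without N replicate 1, aRG replicate 1 or 3, bIP replicate 1 or 2, or either bRG library). It gave 1 to 2 between N and bIP (2 without N replicate 2), 0 to 6 between bIP and aRG (6 without N replicate 3), and 0 to 7 for the interaction (7 without N replicate 4, not estimable without aRG replicate 3).

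Loess offsets turned 4 differences N minus aRG given in the text positive: EEF1B2 to 0.0306, NAP1L1 to 0.0565, NOP58 to 0.0197 and the RN7SL1-listed region to 0.28. RPS29 stayed lower in N against aRG in 28 of 28 alternatives (−0.91 to −0.27, all passing), against bRG in 27 of 27 (26 passing) and against bIP in 28 of 28 (27 passing). The cause of these changes was not tested. Correlations of same-numbered deviations were −0.23 to 0.27, with 0.12 to 0.27 within series 1 and −0.04 and 0.19 within series 2. Differently numbered libraries were not compared, so whether replicate numbers pair the libraries was not tested. TMM against promoter TMM moved the median of all regions, N minus aRG, from 0.18 to 0.47. A 500 bp limit and 1 region per gene gave the same members, and sequence features were not run.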
